A study of Homo sapiens with 23 samples.

Results

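CBLN1 and SYT4 are the genes of a secreted synapse organizer and of a vesicle protein, and both were followed here across genotype and day in human thalamus organoids (ThOs). They are 2 of the 9497 genes listed in every RNA-seq table of the series. They were picked by symbol because both had lower values in the OE group than in the WT and KO groups, so that pattern is described below without a test. Tests are given for these genes only where the OE difference was not used: KO against WT, day 30 against day 25, and the relation of the 2 genes over the WT and KO libraries.

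ThOs are three-dimensional cultures that are patterned towards thalamic tissue, here from the human embryonic stem cell line H1. The WT group came from unedited H1 cells, and the KO group from H1 cells in which c-JUN was targeted with CRISPR/Cas9. The OE group carries the label H1cJunKO+cJun: it has the same knockout background, and c-JUN is expressed again from a doxycycline-inducible (tet-on) construct. Each genotype was sampled at day 25 and day 30 with 2 libraries per group and 3 organoids pooled per library, which gave 12 RNA-seq libraries of the 23 samples in the series. The 9 ATAC-seq and 2 CUT&Tag samples were not analysed here. The series used 2 KO lines, and the labels do not tell which line a KO or OE library came from. Whether the WT and KO cultures also received doxycycline is not stated, so the c-JUN construct and the drug cannot be told apart in the OE group. Nothing in the labels says that the 2 libraries of a group came from separate cultures, so p-values measure only the spread between these libraries, which may be technical.

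CBLN1 (cerebellin 1) is a secreted protein of the C1q family that links neurexins on the presynaptic membrane to GluD receptors on the postsynaptic membrane. It is best known from cerebellar granule cells, where it holds parallel fibre synapses on Purkinje cells in place, and it is also made by thalamic neurons. SYT4 (synaptotagmin 4) is a membrane protein of vesicles, including the dense-core vesicles that carry neuropeptides and neurotrophins. Unlike the fast calcium sensors of its family, it binds calcium poorly through its first C2 domain, and its gene is known to be induced by neuronal activity. c-JUN pairs with FOS, ATF and other leucine zipper proteins to form the AP-1 transcription factors.

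CBLN1 (ENSG00000102924) lies on the minus strand at chr16:49277917-49281838, and SYT4 (ENSG00000132872) on the minus strand at chr18:43267892-43277535, both on GRCh38. The sequence upstream of SYT4 is shown because c-JUN binds DNA at AP-1 sites and, with ATF partners, at cyclic AMP response elements (CRE). The stretch below is RefSeq sequence of build GRCh38.p14, chr18:43277535-43277740, read on the minus strand. Capitals mark matches to the E-box (CANNTG) and to the CRE core (CGTCA).

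SYT4 upstream sequence: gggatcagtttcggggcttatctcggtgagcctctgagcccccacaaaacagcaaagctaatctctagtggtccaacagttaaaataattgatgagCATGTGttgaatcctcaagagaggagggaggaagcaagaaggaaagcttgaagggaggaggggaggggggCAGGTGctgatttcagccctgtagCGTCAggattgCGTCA

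The search covered both strands of the 300-base window from 250 bases before to 50 bases after the RefSeq start of SYT4, which lies at 43277490, 45 bases downstream of the start in the deposited tables. The 206 bases printed are the part of this window upstream of the deposited gene, with its first base. Of the motifs with matches, the 2 E-boxes began at positions -154 and -84 from the RefSeq start, and the 2 CRE cores at positions -60 and -49. The E-box was present in 68.7% of the 35116 promoter windows of the same length, and the CRE core in 24.6%. The core was added to the search after the sequence had been seen, and every full CRE contains it. The AP-1 site (TGANTCA) had 0 matches in the SYT4 window and was present in 7.71% of all windows. The full CRE (TGACGTCA) also had 0 matches, against 1.85% of all windows. The left and right parts of the RE1 element (TTCAGCACC and GGACAGC) had 0 matches each, against 0.376% and 6.03%. These are matches of letters in this window only.

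The targeted gene was read first, as a check of the labels at the RNA level only. For the KO lines, the paper reports no c-JUN protein by western blot, and c-JUN protein again after induction. By RT-qPCR it reports no c-JUN mRNA in cultures of these lines other than ThOs. For ThOs at day 25 it reports from ATAC-seq that chromatin at c-JUN was highly accessible in WT and OE and less so in KO. Those are other samples than the RNA-seq libraries read here. JUN (ENSG00000177606, chr1:58776845-58784048) had values of 128 to 162 in the 4 WT libraries, 196 to 353 in the 4 libraries labelled KO and 202 to 362 in the 4 OE libraries. JUN was thus higher in every library labelled KO than in every WT library (two-sided exact permutation test of 4 libraries against 4, p = 0.0286, the smallest this design allows), and the limma log2 difference was 0.77 (SE 0.229, adjusted p = 0.197). OE and KO overlapped in JUN (exact permutation p = 0.886). Every direction below therefore rests on the labels alone. Replicates of the WT and OE groups had Spearman correlations of 0.936 to 0.959 over all genes, whereas the KO pairs had 0.821 at day 25 and 0.769 at day 30. KO day 30 replicate 2 stood apart, with a median correlation of 0.745 to the other libraries, and the KO differences of CBLN1 and SYT4 are also given without it.

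CBLN1 was high in the WT libraries, somewhat lower on average in the libraries labelled KO, and far below both in OE. The values are the deposited normalised expression values, whole numbers on a scale that runs from 11 to 9910 with a median of 106 in each library. At day 25, CBLN1 was 924 and 496 in the WT replicates, 588 and 424 in the KO replicates, and 186 and 122 in the OE replicates. At day 30, it was 924 and 748 in WT, 710 and 522 in KO, and 141 and 140 in OE. WT and KO overlapped at day 25 and not at day 30, while every OE library was below every WT and KO library at both days.

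The mean of CBLN1 over the 4 libraries of a genotype was 773 ± 202 (SD, n = 4) in WT, 561 ± 120 (SD, n = 4) in KO and 147 ± 27.3 (SD, n = 4) in OE. The OE mean was 19.0% of the WT mean and 26.2% of the KO mean. By day, OE stood at 21.7% of WT at day 25 and at 16.8% at day 30. Against KO the same shares were 30.4% and 22.8%. The KO mean was 71.3% of WT at day 25 and 73.7% at day 30.

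SYT4 followed the same order of genotypes, with the OE group again set apart from the others. At day 25, SYT4 had values of 1332 and 1879 in the WT replicates, 1214 and 1606 in the KO replicates, and 480 and 640 in the OE replicates. At day 30, they were 2400 and 2094 in WT, 1412 and 1326 in KO, and 532 and 525 in OE. WT and KO overlapped at day 25. At day 30 both WT libraries were above both KO libraries, and the OE libraries were lowest at each day.

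The mean of SYT4 was 1926 ± 450 (SD, n = 4) in WT, 1390 ± 166 (SD, n = 4) in KO and 544 ± 67.9 (SD, n = 4) in OE. The OE mean was 28.3% of the WT mean and 39.2% of the KO mean. OE stood at 34.9% of WT at day 25 and at 23.5% at day 30, a difference between days that came with the higher WT values of day 30. Against KO, OE was at 39.7% and 38.6%, almost the same share at both days. The KO mean of SYT4 was 87.8% of WT at day 25 and 60.9% at day 30.

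**Figure D1:**
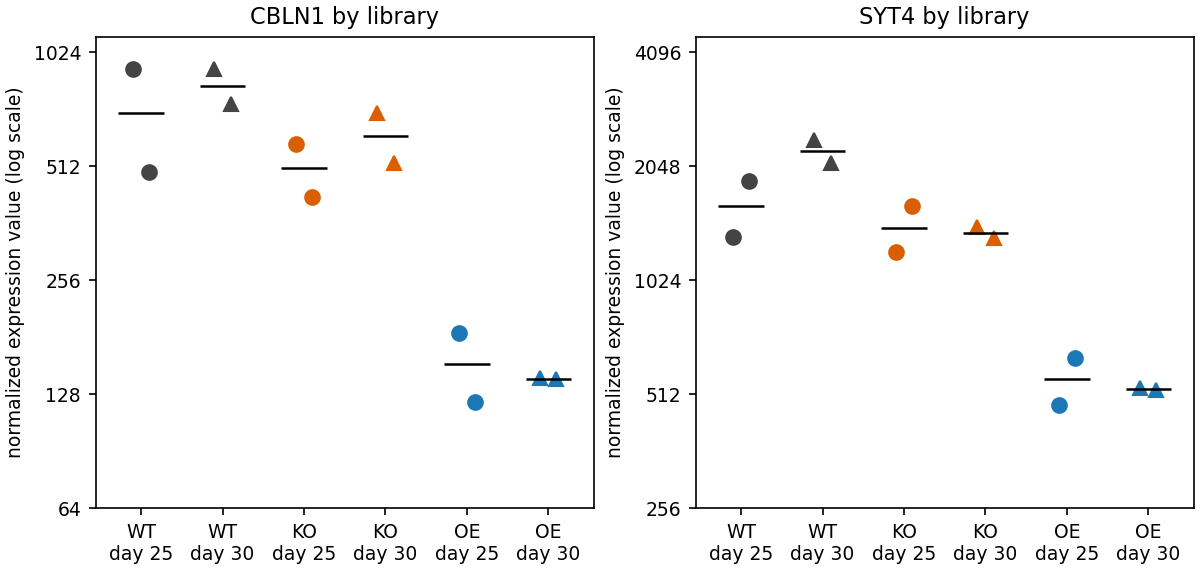
Normalised expression values of CBLN1 and SYT4 in each of the 12 libraries (vertical log axis), with circles for day 25, triangles for day 30 and a bar for the mean of the 2 replicates. The OE libraries, at 122 to 186 for CBLN1 and 480 to 640 for SYT4, lie below all WT and KO libraries, which start at 424 and 1214.

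Ordered by group mean, CBLN1 ran from WT at day 30 (836 ± 124, SD, n = 2) through WT at day 25 (710 ± 303), KO at day 30 (616 ± 133), KO at day 25 (506 ± 116) and OE at day 25 (154 ± 45.3) to OE at day 30 (140.5 ± 0.71). Of these neighbours only KO at day 25 and OE at day 25 did not overlap, with a ratio of means of 3.29. The other 4 steps of the order were within the spread of the replicates. For SYT4 the order was WT at day 30 (2247 ± 216), WT at day 25 (1606 ± 387), KO at day 25 (1410 ± 277), KO at day 30 (1369 ± 60.8), OE at day 25 (560 ± 113) and OE at day 30 (528.5 ± 4.95). Its neighbours did not overlap at WT day 30 against WT day 25, with a ratio of 1.40, nor at KO day 30 against OE day 25, with a ratio of 2.44. The upper end of the scale is coarse: the next value above the 2094 of SYT4 in WT day 30 replicate 2 is 14.2% higher, and that above 2400 in replicate 1 is 11.3% higher. For CBLN1 no such step exceeded 1.13%.

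On the log2 scale used for the fits, CBLN1 in OE differed from WT by -2.16 at day 25, -2.56 at day 30 and -2.36 on average. From KO it differed by -1.72, -2.11 and -1.91. Ranked from the most negative of the 9497 genes, the average CBLN1 difference was at position 2 against WT and at position 28 against KO. SYT4 in OE differed from WT by -1.51 at day 25, -2.08 at day 30 and -1.80 on average, and from KO by -1.33, -1.37 and -1.35. Its average differences were at positions 8 and 89. These differences chose the genes, and the contrasts against WT and against KO share the OE libraries. Without KO day 30 replicate 2, the difference of OE from KO was -2.33 at day 30 and -2.03 on average for CBLN1, and -1.42 and -1.37 for SYT4.

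In 119 of the 9497 genes (1.25%) every OE library was below every WT and KO library, and CBLN1 and SYT4 are among them by their choice. In the other direction 158 genes (1.66%) were above in every OE library. Within a single day, with 2 OE libraries against 4, the shares below were 8.57% at day 25 and 9.07% at day 30. Within these genes the gap between the highest OE value and the lowest WT or KO value was widest for CBLN1. Its gap ran from 186 to 424, a ratio of 2.28. That of SYT4, from 640 to 1214 with a ratio of 1.90, was the next widest. CLDN1, a tight junction claudin of choroid plexus epithelium, followed with 82 against 146 (ratio 1.78), and WNT2B, a Wnt ligand, with 318 against 508 (ratio 1.60).

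**Figure D2:**
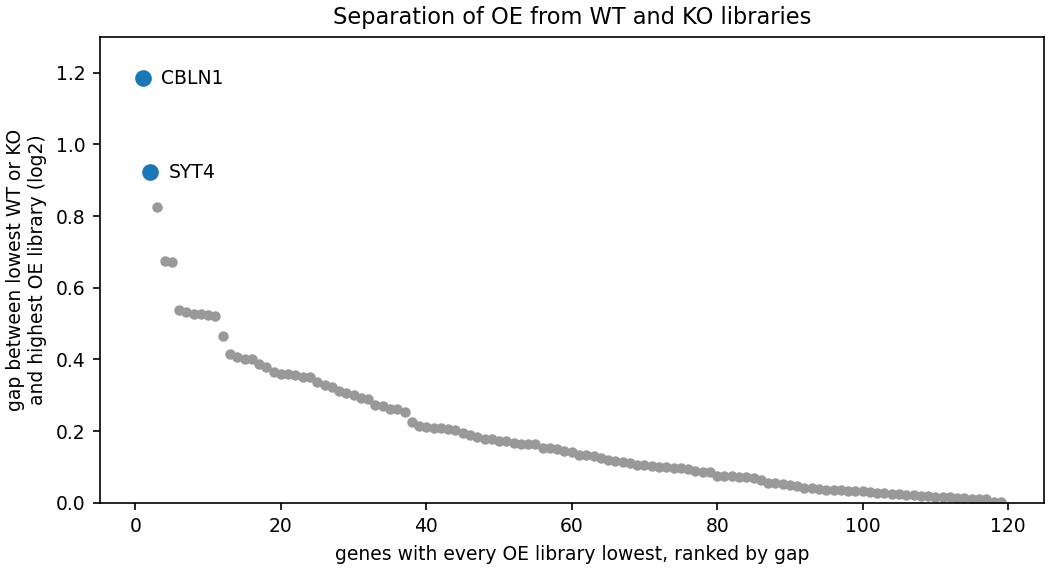
Genes in which all OE libraries lie below all WT and KO libraries, ordered by the gap between the highest OE value and the lowest WT or KO value (vertical axis, in log2 units). CBLN1 (gap 1.18) and SYT4 (gap 0.92) head the order, and CLDN1 follows with 0.82.

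Whether the knockout label went with a change of either gene was tested with limma over all 9497 genes. Neither gene was called (adjusted p below 0.05 together with at least a 2-fold change), in a comparison in which 0.0211% of all genes were called over the mean of days. CBLN1 differed in KO by -0.44 on the log2 scale (SE 0.223, 95% interval -0.93 to 0.05, limma adjusted p = 0.361). The two-sided exact permutation test of its 4 KO against 4 WT libraries gave p = 0.143, and the ranges overlapped. SYT4 differed in KO by -0.45 (SE 0.147, 95% interval -0.77 to -0.12, limma adjusted p = 0.221). Its exact permutation p was 0.0857, where 0.0286 is the smallest value possible, and its ranges overlapped too. In 3.14% of all genes every KO library was below every WT library. SYT4 was thus among the 8.16% of genes that were lower in KO at an unadjusted p under 0.05, and did not pass the adjustment. Without KO day 30 replicate 2, the differences were -0.33 for CBLN1 (adjusted p = 0.634) and -0.42 for SYT4 (adjusted p = 0.383).

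By day, the KO difference of CBLN1 was -0.44 at day 25 (95% interval -1.13 to 0.25, adjusted p = 0.578, limma), where 0.0105% of genes were called. It was -0.45 at day 30 (95% interval -1.14 to 0.24, adjusted p = 0.662), where 0% were called. The KO difference of SYT4 was -0.18 at day 25 (95% interval -0.64 to 0.28, adjusted p = 0.748) and -0.71 at day 30 (95% interval -1.17 to -0.25, adjusted p = 0.643). Single libraries moved these values. The CBLN1 difference at day 25 was 0.01 without WT replicate 1, -0.89 without WT replicate 2, -0.67 without KO replicate 1 and -0.20 without KO replicate 2. At day 30 that of CBLN1 was -0.30 without WT replicate 1 and -0.23 (adjusted p = 1.00) without KO replicate 2, and that of SYT4 was -0.67 (adjusted p = 1.00) without KO replicate 2. The SYT4 difference at day 25 lay between -0.43 and 0.07 with 1 library of that day left out. The change of the KO difference between days was -0.01 for CBLN1 (SE 0.446, adjusted p = 0.996) and -0.53 for SYT4 (SE 0.295, adjusted p = 0.802), so neither gene was shown to respond to the knockout label differently at the 2 days. At this replicate number the intervals also leave room for a 2-fold lower level of CBLN1 and of SYT4 in KO at day 30.

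From day 25 to day 30 neither gene was called in any genotype, and 0% of all genes were called in any of the day comparisons by limma. At an unadjusted p under 0.05, SYT4 in WT passed, as did 2.19% of all genes in that direction, and the other day tests of CBLN1 and SYT4 did not. In WT, SYT4 was at 1332 and 1879 at day 25 and at 2400 and 2094 at day 30 without overlap, a log2 difference of 0.50 (SE 0.208, 95% interval 0.05 to 0.96, limma adjusted p = 1.00). In KO and OE the SYT4 differences were -0.03 and -0.07. CBLN1 differed by 0.30 in WT, 0.29 in KO and -0.10 in OE (SE 0.316 each). Without KO day 30 replicate 2, the KO values were 0.02 for SYT4 and 0.51 for CBLN1. Averaged over genotypes, the day difference was 0.16 for CBLN1 (SE 0.182, limma adjusted p = 0.778, exact permutation p = 0.76 for 6 libraries against 6) and 0.13 for SYT4 (SE 0.120, adjusted p = 0.71, exact permutation p = 0.753). The permutation tests mix the 3 genotypes and could have reached 0.00216.

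Over the 8 WT and KO libraries the log2 values of CBLN1 and SYT4 had no relation that passed a test. Pearson's r was 0.26 (exact permutation p = 0.522) and Spearman's rho 0.228 (exact permutation p = 0.586). KO day 25 replicate 2 was farthest from the CBLN1 median, and both WT libraries at 924 were equally far in the next place. Left out together with WT day 30 replicate 1, it gave an r of -0.05 (exact permutation p = 0.972, n = 6). Left out together with WT day 25 replicate 1, it gave an r of 0.60 (exact permutation p = 0.186, n = 6). The relation thus turned on which of these WT libraries was kept. WT day 30 replicate 1 held the highest value of both genes. WT day 25 replicate 1, by contrast, had the same CBLN1 value of 924 together with the lowest SYT4 value of WT. Over all 12 libraries r was 0.899, but there the OE libraries are low in both genes by choice.

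The 10 genes most like the pair were ranked by the smaller of their Pearson correlations with CBLN1 and with SYT4 over the 12 libraries, which share their genotype groups. This smaller r ran from 0.823 to 0.882 among the 10, and 15 of 9489 genes exceeded 0.8. ASAH1, which encodes acid ceramidase of the lysosome, came first with mean values of 174 in WT, 165.5 in KO and 87.75 in OE. PARM1, a mucin-like membrane protein, had 203, 168.75 and 63.25. PATJ, a scaffold of the Crumbs polarity complex, had 259.5, 200.75 and 93. Then followed ITM2C, the lysosomal membrane protein SCARB2, the actin-binding NEBL, the tight junction protein OCLN, the insulin-degrading enzyme IDE, the amyloid precursor gene APP and the non-muscle myosin MYH9. In 9 of the 10 genes every OE library was the lowest, beside 1.25% of all genes. The ranking itself favours such genes, because CBLN1 and SYT4 are low in OE by choice. Ranked by Spearman correlation instead, 5 of the 10 stayed among the first 10.

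Among the genes whose products work with CBLN1, NRXN2, which encodes a presynaptic neurexin, was listed in the tables. NRXN2 ran from 252 to 338 in WT, 254 to 352 in KO and 167 to 286 in OE. Its log2 difference in OE was -0.32 from WT (limma adjusted p = 0.774) and -0.35 from KO (adjusted p = 0.318), and 0.04 between KO and WT (adjusted p = 0.944). The OE range of NRXN2 overlapped those of WT and KO, unlike that of CBLN1. The related cerebellin genes CBLN2 and CBLN4 were not analysed here.

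SYT4 was compared with 10 of 29 related genes that were listed, the synaptotagmins and other proteins with tandem C2 domains. None of the 10 was called, against 2.22% of all genes in OE against KO and 0.158% in OE against WT over the mean of days (limma), the latter made up of 0.116% lower and 0.0421% higher. At an unadjusted p under 0.05, 3 of the 10 were lower against KO and 1 against WT, beside 10.7% and 4.69% of all genes. SYT1, the fast calcium sensor of synaptic vesicles, had 204 to 264 in WT, 206 to 300 in KO and 196 to 323 in OE. SYT11, which like SYT4 binds calcium poorly, had 558 to 720 in WT, 314 to 703 in KO and 504 to 598 in OE. Neither of these relatives was set apart in OE: SYT1 differed by 0.08 from WT and 0.03 from KO, and SYT11 by -0.21 and 0.01. SYT5 had the most negative difference from KO among the 10, -1.31 (SE 0.394, adjusted p = 0.0921), with values of 34 to 114 in KO, 20 to 68 in WT and 26 to 31 in OE. ESYT1, an extended synaptotagmin of contacts between the endoplasmic reticulum and the plasma membrane, was the only one of the 10 with every OE library (144 to 218) below the WT (224 to 356) and KO (229 to 290) libraries. Its difference was -0.68 from WT (SE 0.165, adjusted p = 0.187) and -0.50 from KO (adjusted p = 0.116).

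Genes of the wider secretory and synaptic pathways were taken from lists of the fusion machinery, dense-core vesicle cargo and processing, other trans-synaptic organizers and activity-regulated genes. Together with the relatives above, these lists held 93 listed genes besides CBLN1 and SYT4. In OE against KO over the mean of days, 0 of the 93 were called higher and 5 were called lower, beside 1.05% and 1.17% of all genes. Their median log2 difference was -0.23, beside 0.01 over all genes, and 64 of the 93 were negative, beside 4622 of all 9497 genes. At an unadjusted p under 0.05, 26 were lower and 5 higher, beside 10.7% and 11.5% of all genes. In OE against WT, 0 of the 93 were called by limma in either direction, with 17 lower and 2 higher at an unadjusted p under 0.05, beside 4.69% and 3.53% of all genes. The median there was -0.10, beside 0.00 over all genes. In KO against WT, 0 of the 93 were called, with 5 lower and 17 higher at an unadjusted p under 0.05, beside 8.16% and 7.01% of all genes, and the median was 0.07. In day 30 against day 25, 0 of the 93 were called, with 6 lower and 4 higher at an unadjusted p under 0.05, beside 5.54% and 5.76% of all genes.

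Of the called genes, 3 were among the 9 listed genes of dense-core vesicles, the compartment on which SYT4 is found, beside 1.17% of all genes called lower. Of the 9, 6 were lower in OE than in KO and 3 higher, with a median of -0.64. Against WT, 7 of the 9 were lower and 2 higher, with a median of -0.09 and 0 called. VGF, a neuropeptide precursor, was lower in OE than in KO by -2.28 (SE 0.337, adjusted p = 0.00982), with values of 28 to 67 in OE, 112 to 400 in KO and 76 to 121 in WT. PTPRN, a membrane protein of the granule, differed by -1.54 (SE 0.271, adjusted p = 0.0188). SCG2, a granin, differed by -1.04 (SE 0.185, adjusted p = 0.0196). CADPS2, which primes dense-core vesicles for release, was the only one called of the 37 listed genes of the fusion machinery, at -1.65 (SE 0.308, adjusted p = 0.022). CLSTN2, a calsyntenin, was the only one called of the 30 listed organizers, at -1.15 (SE 0.237, adjusted p = 0.032). None of the 6 activity-regulated genes listed was called, and their median was 0.28, with 1 lower and 1 higher at an unadjusted p under 0.05, beside 10.7% and 11.5% of all genes.

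On average these 5 genes had another pattern over the groups than CBLN1 and SYT4. Each was higher on average in KO than in WT, with log2 differences of 0.63 for SCG2, 0.69 for CLSTN2, 0.87 for CADPS2, 0.89 for PTPRN and 1.24 for VGF, none of them called. The 5 genes were picked by OE against KO, which shares the KO libraries with KO against WT and favours genes with high KO values. CBLN1 and SYT4 were lower on average in KO than in WT by -0.44 and -0.45, also not called. The OE values of the 5 genes differed from WT by -0.42 for SCG2, -0.46 for CLSTN2, -0.65 for PTPRN, -0.78 for CADPS2 and -1.04 for VGF, again none called. Without OE day 25 replicate 1, OE day 25 replicate 2 or OE day 30 replicate 2, only the VGF call held. Calls over all genes fell there too, and each of these fits left 1 library in a group. Calls also fell, among the 93 and over all genes, without KO day 30 replicate 2, and rose without KO day 30 replicate 1. With 1 library left out, OE minus KO lay between -2.74 and -1.83 for VGF and between -2.02 and -1.28 for CADPS2. The ranges were -1.84 to -1.25 for PTPRN, -1.38 to -0.92 for CLSTN2 and -1.16 to -0.92 for SCG2. In 5 of the 93 genes every OE library lay below every WT and KO library, beside 119 of all 9497 (1.25%). They were VGF, ESYT1, UNC13A, a vesicle priming factor (71 to 123 in OE), PTPRD, a presynaptic receptor phosphatase (251 to 486), and NPTX1, a secreted pentraxin that gathers AMPA receptors (19 to 24). They are named after their values were seen.

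**Figure D3:**
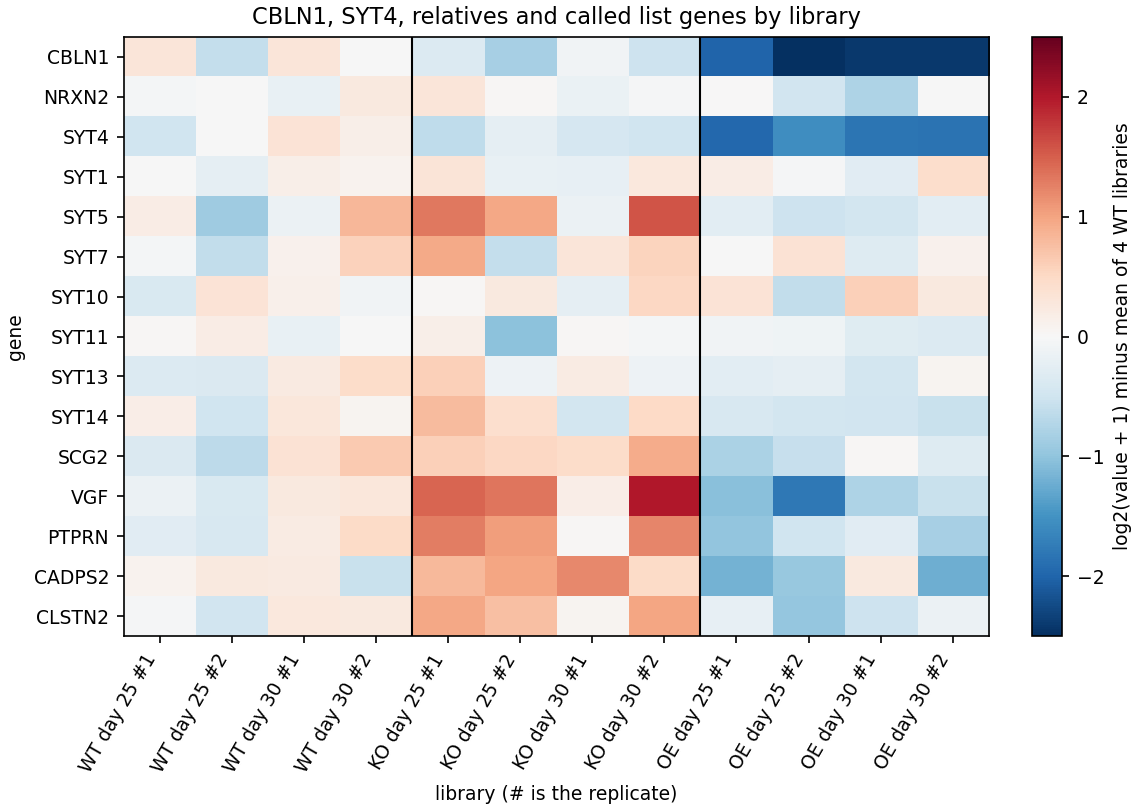
Heat map of log2(value + 1) of CBLN1, SYT4, NRXN2, 7 listed synaptotagmins and the 5 called list genes (rows) in each library (columns), as the difference from the gene's mean over the 4 WT libraries (colour scale in log2 units). The OE columns of CBLN1 and SYT4 are low throughout, SYT1 and SYT11 stay near the WT level in OE, and VGF (112 to 400 in KO) is above its WT mean in the KO columns.

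**Figure D4:**
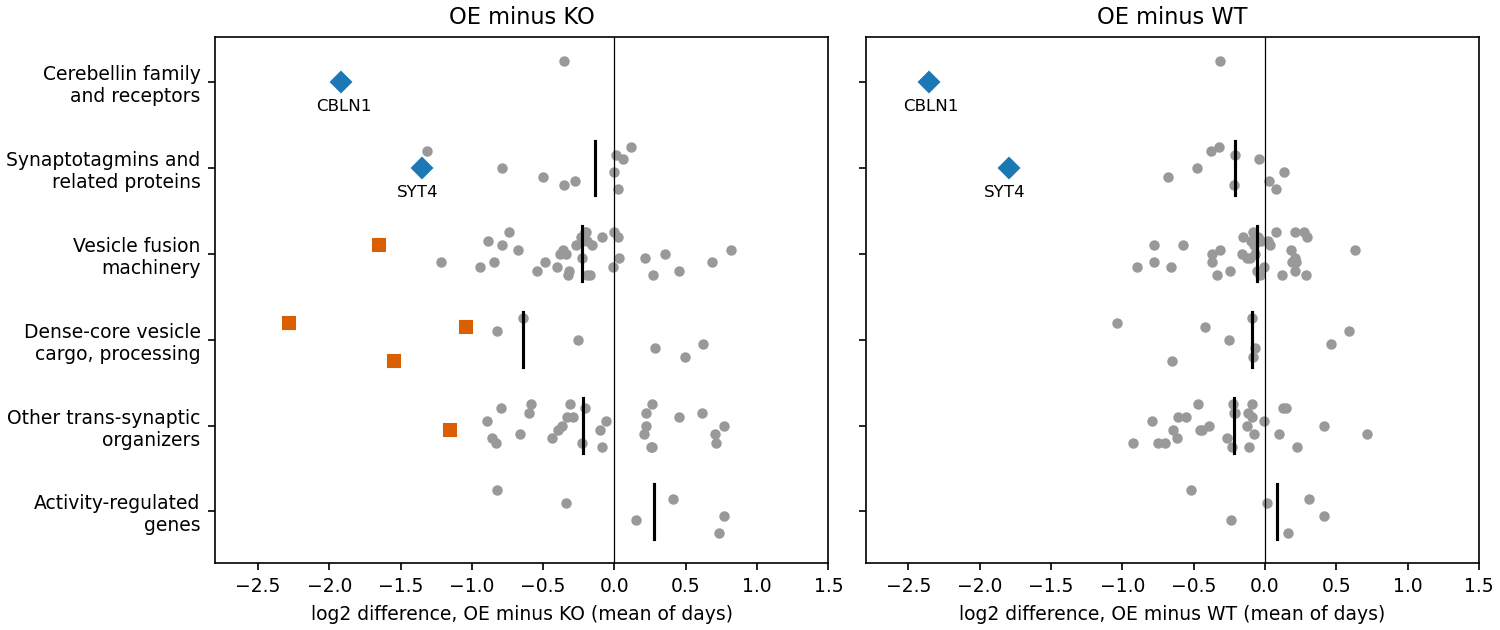
Log2 difference over the mean of days (horizontal axis) of the genes of the 6 pathway lists, in OE against KO and in OE against WT. Diamonds mark CBLN1 and SYT4, squares the called genes, circles the others, and vertical bars the median of each list with at least 3 genes drawn, without CBLN1 and SYT4. CBLN1 is at -1.91 from KO and -2.36 from WT and SYT4 at -1.35 and -1.80, to the left of every other gene against WT, whereas VGF (-2.28) is the leftmost gene against KO.

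The genes next to CBLN1 and SYT4 on the chromosome, among those listed, did not share their pattern. N4BP1, 658 kb before CBLN1, had values of 72 to 112 in WT, 36 to 89 in KO and 77 to 112 in OE. ZNF423, 206 kb after CBLN1, had 458 to 607 in WT, 338 to 552 in KO and 410 to 500 in OE. The listed neighbours of SYT4 lie farther away, PIK3C3 at 1180 kb and SETBP1 at 1403 kb, and their OE libraries were at 202 to 229 and 262 to 323, against 160 to 252 and 140 to 275 in KO. None of these 4 genes was called in OE against KO (limma adjusted p from 0.112 for SETBP1 to 0.788 for ZNF423) or against WT (adjusted p from 0.606 for SETBP1 to 0.998 for N4BP1).

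Markers of the cells in which CBLN1 and SYT4 are made were read beside these values, since in bulk organoids fewer cells of a type and less RNA per cell cannot be told apart. Of 14 pan-neuronal markers 13 were listed, and RBFOX3 was not. Their summed value was 7577 to 11188 in WT, 9229 to 12086 in KO and 8670 to 12496 in OE, and these ranges overlapped. MAP2 alone, at 2674 or 3456 in every library, made up a large part of each sum. Against WT, 7 of the 13 had a positive log2 difference in OE and 6 a negative one, with a median of 0.11. By limma none was called, beside 0.158% of all genes. At an unadjusted p under 0.05, 1 was higher and 0 lower, beside 3.53% and 4.69% of all genes. The 13 differences ran from STMN2, a tubulin-binding protein, at 0.61 (adjusted p = 0.489) to GAP43, a growth cone protein, at -0.30 (adjusted p = 0.635). None of the 13 was called at 2-fold in OE against KO, beside 2.22% of all genes. Against KO, GAP43 was lower in OE by less than 2-fold (-0.92, SE 0.143, adjusted p = 0.0121). At an unadjusted p under 0.05, 3 of the 13 were lower and 1 higher, beside 10.7% and 11.5% of all genes.

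Of 13 thalamus markers 6 were listed, and the defining genes GBX2, OLIG3, LHX2, FOXP2 and RORA were not, so the thalamic label could be checked only in part. Their sum was 616 to 845 in WT, 464 to 967 in KO and 568 to 1408 in OE. Of 11 cerebellar and hindbrain markers, the region for which CBLN1 is best known, only BARHL1 was listed, at 62 to 129 in WT, 48 to 102 in KO and 76 to 109 in OE. The 3 of 8 glutamatergic markers listed summed to 208 to 248 in WT, 172 to 354 in KO and 201 to 517 in OE. None of the 8 GABAergic or the 4 pluripotency markers was listed, and 1 of 7 glial markers was. In all of these lists the ranges of the 3 genotypes overlapped.

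By summed value, the proliferation markers were the one list set apart in OE from both WT and KO. The 6 markers, all listed, summed to 2455 to 2721 in OE, above the 1635 to 2328 of WT and the 1297 to 1825 of KO. MKI67, a marker of dividing cells, was higher in OE than in KO by 1.55 (limma adjusted p = 0.032), as was the progenitor gene SOX2 by 1.27 (adjusted p = 0.0429). They were the only genes called higher of the proliferation and progenitor lists, beside 1.05% of all genes. Against WT, no gene of these lists was called in OE, and the median log2 differences were 0.40 and -0.20. In KO against WT the medians were -0.47 and -0.50, and again no gene was called. The 8 of 11 progenitor markers listed summed to 6669 to 13855 in WT, 3984 to 7604 in KO and 6559 to 8614 in OE. The highest WT sum was that of day 25 replicate 1, where VIM alone was 9910, the top of the scale, against 3452 in the other WT libraries. The 8 of 10 choroid plexus markers listed summed to 3806 to 6324, 3341 to 8929 and 2742 to 6785, and the 9 of 10 roof plate markers listed to 1263 to 1969, 2136 to 3301 and 1336 to 2669. In OE against KO, 3 of the 9 roof plate markers were called lower and 1 higher, beside 1.17% and 1.05% of all genes. Their median was -1.03 there, 0.01 in OE against WT and 1.02 in KO against WT, with 0 called in the last 2 comparisons. Of the 8 choroid plexus markers, 1 was called lower in OE against KO. The 2 of 9 mesenchyme and endothelium markers listed summed to 225 to 382 in WT, 261 to 980 in KO and 128 to 318 in OE. The part of proliferating or other cells in the lower CBLN1 and SYT4 values was not tested.

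**Figure D5:**
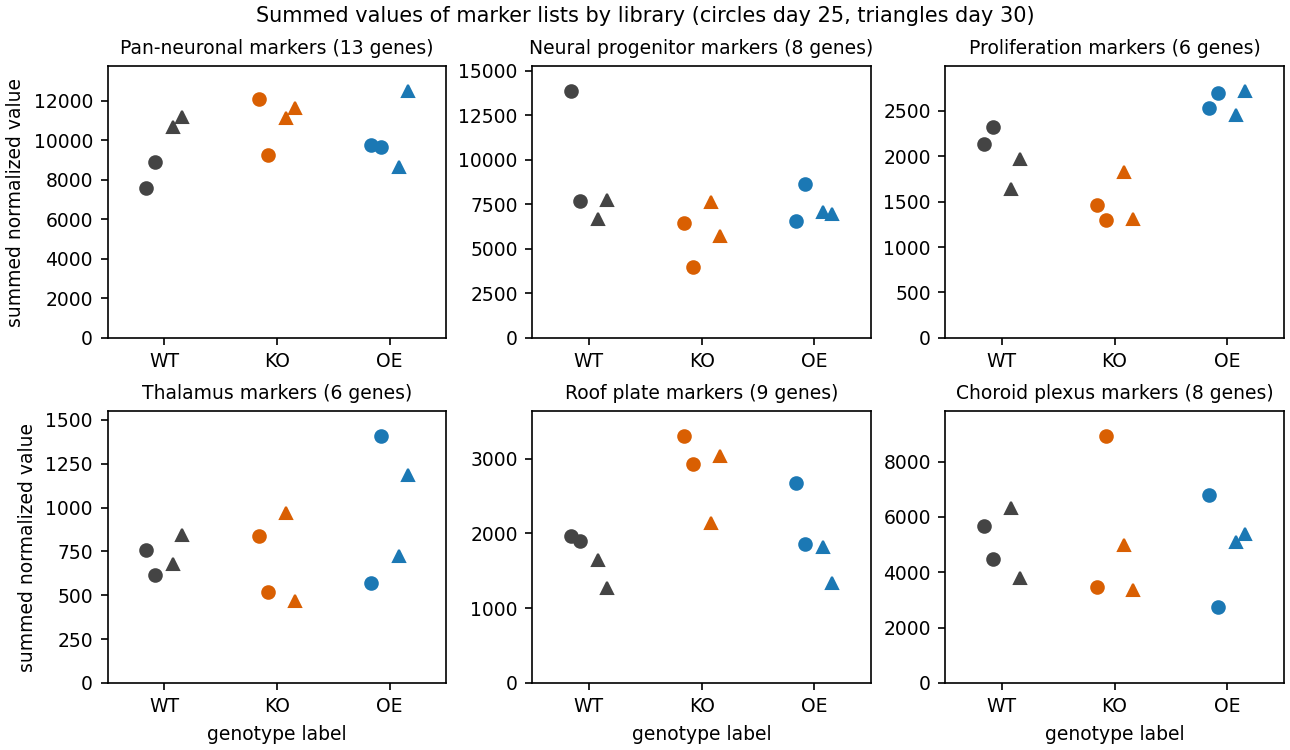
Summed normalised values of 6 marker lists in each library (vertical axes from 0), grouped by genotype label, with circles for day 25 and triangles for day 30. The pan-neuronal sums of the 3 genotypes overlap, and the proliferation sums of OE (2455 to 2721) lie above those of WT and KO.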

How the data were processed

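RNA of 3 pooled ThOs per library was extracted with TRIzol and sequenced as total RNA, per the labels. The authors deposited 1 table per library, and its values are a normalised expression score rounded to whole numbers. The submitters' processing notes name bcl2fastq, RSEM, Bowtie2 and hg19 without their roles. How the score was normalised is not given in the sources used here. All 12 tables share their minimum, median and maximum, sum to 1788282 to 1798596 and hold 687 to 690 distinct values over 9497 genes, so differences in overall level cannot be seen, the depth is unknown, and no counting interval was given. Positions fit GRCh38 and not the build named: all 9386 symbols matched to RefSeq GRCh38.p14 overlapped its positions.

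Log2(value + 1) was fitted with limma 3.58.1 in R 4.3.3, with a mean for each of 6 groups and an intensity trend (6 residual and 5.29 prior degrees of freedom), with Benjamini-Hochberg adjustment across all genes of a contrast. Fold changes are on this scale. Calls needed an adjusted p below 0.05 and at least a 2-fold change. A filter of values of at least 1 in at least 2 libraries removed 0 genes. The 4 permutation tests of CBLN1 and SYT4 are exact, two-sided and not adjusted (scipy 1.17.1). The fit was tested on simulated data. The set of RefSeq promoters used here held 1 of the 2 genes, SYT4.

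CBLN1, SYT4 and the gene lists were chosen with earlier results of these data known. Named genes were CBLN1, SYT4, JUN, their relatives, list genes that were called, the 10 most similar genes and the nearest listed neighbours; 1 listed gene of the cerebellin list is counted in the totals but not reported here. Alternatives were pseudocounts of 0.1 and 5, no filter, a mean of at least 50, quantile normalization, median centring, library weights, no trend, the replicate block, only the libraries compared, and each library left out. Correlation by rank or without 2 libraries, and the CRE core motif, were added after the data were seen.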

Additional observations from a re-analysis of the deposited data

How the results depend on the processing

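With 2 libraries per group, the mean over days was steadier than a single day. Over its 22 alternatives CBLN1 in KO minus WT stayed between -0.67 and -0.22 on the log2 scale (adjusted p 0.148 to 0.708), and SYT4 between -0.57 and -0.32 (adjusted p 0.0866 to 0.587), neither past the threshold. With one library left out, CBLN1 in OE ranged from -2.07 to -1.76 against KO and from -2.58 to -2.13 against WT, and SYT4 from -1.45 to -1.25 and from -1.92 to -1.67. The day differences over genotypes ranged from 0.01 to 0.31 for CBLN1 and from 0.05 to 0.22 for SYT4.

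Single-day values changed sign when one library was left out. The KO difference at day 25 became 0.0096 for CBLN1 without WT replicate 1, within a range of -0.89 to 0.01, and 0.068 and 0.02 for SYT4 without WT replicate 2 and KO replicate 1 (range -0.43 to 0.07). The change of the CBLN1 KO difference between days became 0.44 without WT day 25 replicate 2, 0.23 without KO day 25 replicate 1, 0.14 without WT day 30 replicate 1 and 0.21 without KO day 30 replicate 2 (range -0.46 to 0.44). The day difference of CBLN1 became -0.15 in WT without day 25 replicate 2 (range -0.15 to 0.74) and 0.20 in OE without day 25 replicate 1 (range -0.40 to 0.20). That of SYT4 became 0.17 and 0.02 in KO without day 25 or day 30 replicate 2 (range -0.23 to 0.17), and 0.14 in OE without day 25 replicate 2 (range -0.28 to 0.14). The correlation of CBLN1 with SYT4 became -0.049 without WT day 30 replicate 1 and KO day 25 replicate 2, and 0.60 with WT day 25 replicate 1, equally far from the median, left out in place of the former.

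The 5 pathway genes called in OE against KO became 1 with library weights, 0 with only the libraries compared and 1 to 18 with one library left out, and the 0 called in OE against WT became 1 with weights, 1 with only the libraries compared and 0 to 0 with one library left out. The gene called against WT was VGF in both (adjusted p = 0.0192 and 0.0357). Calls over all genes moved the same way in these settings. In OE against KO they fell from 211 to 41 with weights and to 11 with only the libraries compared. In OE against WT they rose from 15 to 91 and to 68 of 9497 genes. The adjusted p in OE against KO was no longer under 0.05 for CLSTN2 in 11 of 22 alternatives, for CADPS2, PTPRN and SCG2 in 5 each and for VGF in 1. Without KO day 30 replicate 1, only replicate 2, the library that stood apart, was left in that group. KO minus WT was then 1.70 for VGF, 1.19 for PTPRN, 0.92 for CLSTN2 and 0.75 for SCG2. Calls over all genes rose in that fit as well. The 119 genes lowest in every OE library became 814 within day 25, 861 within day 30 and 135 to 284 with one library left out. The cause was not tested beyond the fewer libraries.

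Replicate numbers did not pair the libraries: deviations correlated at -0.214 to 0.262 over 15 group pairs, 1 of them above 0.1. With the replicate block, 5 and 0 pathway genes were called, adjusted p was 0.27 for CBLN1 and 0.229 for SYT4 in KO against WT, and calls over all genes fell from 211 to 139 in OE against KO and from 15 to 5 in OE against WT. How coarse the scale is limits SYT4 more than CBLN1, and genes not listed in the tables were not analysed here.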
